A study of Mus musculus with 16 samples.

Results

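The cells described here are the embryonic gut of chimeric mouse embryos: the 469 cells whose transferred label was Foregut, Midgut or Hindgut, of 37841 cells that passed the same filters in the whole series. Foregut held 192 cells, 101 Stat3 null and 91 wild type (WT). Midgut held 166, of which 92 were null and 74 WT, and Hindgut held 111, of which 43 were null and 68 WT. A cell was a member if the label that the study transferred to it from its nearest neighbours in an extended mouse gastrulation atlas was 1 of these 3, if it passed the study's quality filter and if it was not called a doublet. The 3 labels were kept apart throughout. All members came from E8.5 and E9.5, and 0 E7.5 cells carried these labels.

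The gut tube forms when definitive endoderm, the innermost germ layer, folds into a tube that is still joined to the yolk sac. The foregut gives rise to thyroid, lung, liver and part of the pancreas, the midgut to most of the small intestine, and the hindgut to most of the large intestine. Its regions are laid out from head to tail by transcription factors, among them Nkx2-1, Hhex and Pdx1 towards the front, the Cdx factors towards the back, and the Hox genes, whose later-numbered paralogues are used further back and later. The early gut tube is of mixed origin: cells of the visceral endoderm, an extra-embryonic layer, are scattered among the definitive endoderm cells, most densely in the hindgut, and Rhox5 and Trap1a are known marks of that origin. STAT3 is a transcription factor that acts downstream of LIF and other cytokines. Embryonic stem cells (ESCs) injected into a blastocyst are known to add few cells to extra-embryonic endoderm.

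The null cells descended from CD1 Stat3 null ESCs in which a run of exons late in the gene is deleted. They carried a tdTomato reporter, and the reporter lines had been grown from picked colonies. How many such lines went into the chimeras is not given in the sources used here. The hosts were WT blastocysts of the same CD1 stock, and cells sorted as WT without tdTomato counts were taken as host cells. A null cell sorted as WT in which no tdTomato was counted would still stand among them. Descent from cultured ESCs cannot be told apart from the loss of Stat3. Whole untreated embryos were dissociated and sorted by tdTomato into null and WT libraries, 2 and 2 at E8.5, each from pooled embryos, and 4 and 4 at E9.5. The labels give 1 embryo per E9.5 library, but the study's methods name fewer E9.5 embryos than 4 library pairs would need, so how many independent embryos there were is unclear, and p-values measure the spread between libraries, which may be technical. Null and WT libraries were sorted from the same embryo pools, and the labels number these pools, but the library names in the cell table carry no pool number. Libraries are therefore lettered A to D within a group, and the letters were not used to pair them.

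Libraries of these stages held 11 to 105 gut cells, with a median of 16179 (E8.5 WT B) to 51312 (E9.5 null D) unique molecular identifiers (UMIs, each a counted mRNA molecule) per gut cell. Over whole libraries of these stages Stat3 stood at 1.54 to 2.53 counts per 1000000 UMIs (CPM) in null and 6.14 to 7.73 CPM in WT libraries, which do not overlap. The 3′ tags counted here need not come from the deleted exons. A tdTomato UMI was found in 98 of 105 gut cells of E8.5 null A, in 33 of 42 of E8.5 null B and in 43 of 45, 11 of 11, 11 of 11 and 22 of 22 of the E9.5 null libraries, and 3 gut cells of WT libraries that had one were left out. Of the 469 members, 10 had a barcode that also occurred in another library, and 0 barcodes were held by gut cells of 2 libraries.

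The markers of gut epithelium were where the labels put them. After every cell was thinned to 10000 UMIs, Epcam, an epithelial adhesion molecule, had a UMI in 96.4% of Foregut, 100% of Midgut and 98.2% of Hindgut cells (95% Wilson intervals 92.7 to 98.2%, 97.7 to 100% and 93.7 to 99.5%), against 8.13% of Mesenchyme and 1.96% of Erythroid cells. Foxa2, the pioneer factor of endoderm, had a UMI in 46.4%, 45.8% and 40.5% of the 3 gut types and in 0.805% of Mesenchyme cells. Cdx2 had a UMI in 4.69% of Foregut, 54.8% of Midgut and 65.8% of Hindgut cells, beside 15.9% of Mesenchyme cells. The label transfer read these genes, so this is a check and not a test. The intervals cover counting error only. Before thinning, the median depth was 27406 UMIs in Foregut, 21812 in Midgut, 28958 in Hindgut and 29330.0 in Mesenchyme cells.

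The later Hox genes set Hindgut apart from the other two labels. The label transfer did not leave out Hox genes, so this too is a check and not a test. Summed over the 12 genes of paralogue groups 6 to 9, WT cells at E8.5 stood at 23.8 ± 15.8 CPM in Foregut, 62.1 ± 72.6 CPM in Midgut and 1766 ± 242 CPM in Hindgut (mean ± SD, n = 2 libraries each). Null cells stood at 7.85 ± 0.709, 57.2 ± 63.4 and 1539 ± 129 CPM. Foregut and Midgut libraries overlapped in WT, where Foregut stood at 12.5 and 35.0 CPM. The wide spread in Midgut lay in both genotypes, with libraries at 10.7 and 113 CPM in WT and 12.4 and 102 CPM in null cells. Hoxb1, a paralogue used near the head, stood at 46.4 ± 23.0 CPM in WT and 30.7 ± 15.7 CPM in null Foregut.

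Some single regulators were highest in the cells of their own label and others were not. The label transfer did not leave these genes out either, so this is also a check. Hhex, which is required for the liver and thyroid buds, stood at 180.4 ± 42.9 CPM in WT and 239 ± 58.8 CPM in null Foregut at E8.5, and at 6.27 ± 8.87 and 35.4 ± 27.6 CPM in Midgut. Nepn, a secreted proteoglycan and an early midgut marker, stood at 1119.7 ± 144 and 719.9 ± 244 CPM in Midgut. Cdx4 stood at 167 ± 40.4 CPM in WT and 377 ± 154 CPM in null Hindgut, and T, the tailbud factor Brachyury, at 104 ± 32.2 and 50.02 ± 34.9 CPM there. In Foregut and Midgut the group means of Cdx4 and T at E8.5 ran from 0 to 5.10 CPM. Sox2 and Pax9, known as foregut factors, were not highest in Foregut in every group. Sox2 had a UMI, after each cell was thinned to 10000 UMIs, in 62 of 192 Foregut, 33 of 166 Midgut and 52 of 111 Hindgut cells, and its means at E8.5 were 79.3 ± 4.98 CPM in WT and 63.8 ± 19.9 CPM in null Foregut, beside 89.6 ± 46.7 and 18.9 ± 9.12 CPM in Hindgut. Pax9 at E9.5 stood at 2.78 ± 3.22 CPM in WT and 5.18 ± 7.83 CPM in null Foregut, and at 74.2 ± 42.2 and 111 ± 58.3 CPM in Hindgut.

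**Figure D1:**
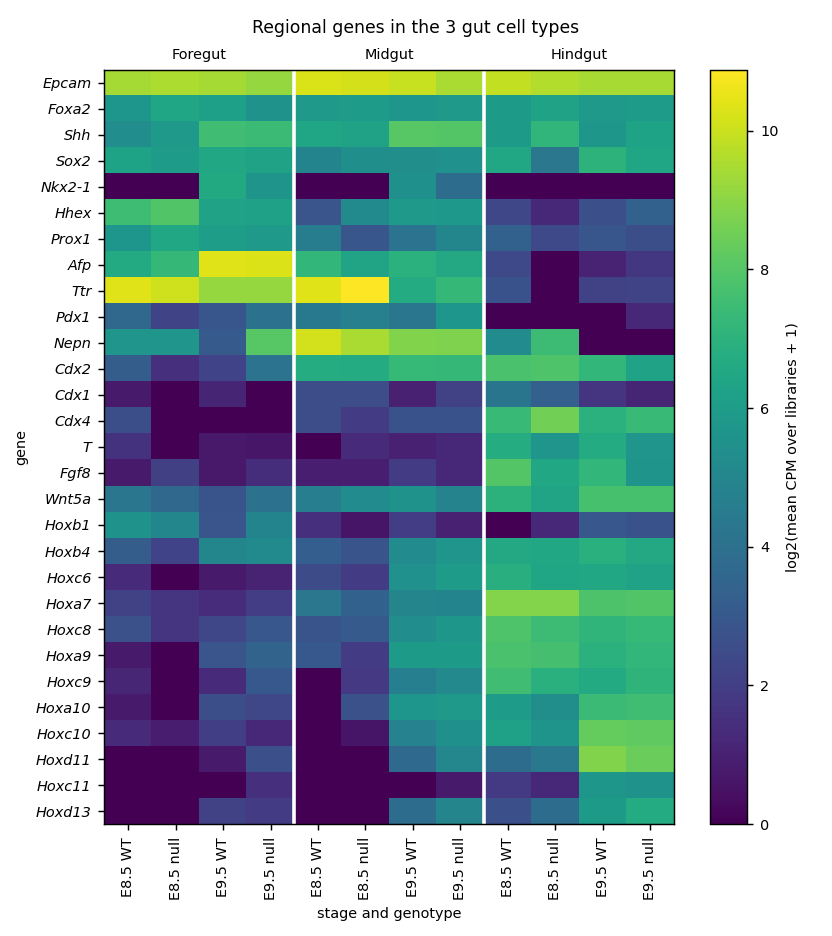
Mean level of regional genes in Foregut, Midgut and Hindgut cells by stage and genotype, as log2(mean CPM over libraries + 1), with 2 libraries a group at E8.5 and 4 at E9.5 (3 for E9.5 null Foregut). The later Hox genes fill the Hindgut columns of both genotypes, and Hoxd11 in WT Hindgut goes from 13.3 CPM at E8.5 to 453 CPM at E9.5.

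The comparison of cell numbers asks whether null cells reached the gut as often as WT cells. No gut type passed an adjusted p of 0.05 at either stage, in an edgeR fit of cell counts per library across all cell types with at least 20 cells. At E8.5 the log2 fold change of null over WT was 0.78 ± 0.43 (SE) in Foregut, 1.05 ± 0.52 in Midgut and -0.24 ± 0.50 in Hindgut (Benjamini-Hochberg adjusted p 0.844, 0.844 and 0.984 over 68 cell types). At E9.5 it was -0.21 ± 0.59, 0.32 ± 0.65 and -0.27 ± 0.62 (adjusted p 0.997 for each, over 71 cell types, of which 1 passed). A gut type made up 0.114 to 0.647% of a library's cells at E9.5, save for Foregut in null C, which was 1 cell (0.0628%). Without that library the Foregut value turned from -0.21 to 0.07.

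Within the gut, Hindgut took a smaller share in null than in WT libraries among those with at least 20 gut cells. Hindgut was 17.8 and 26.0% of the gut cells in E8.5 WT A and B, and 32.1 and 48.9% in E9.5 WT A and D. It was 13.3 and 9.52% in E8.5 null A and B, and 24.4 and 27.3% in E9.5 null A and D, so that within each stage both null shares lay below both WT shares. The mean was 18.6% ± 8.55 in null and 31.2% ± 13.2 in WT libraries (SD, n = 4 each), a difference of -12.6 percentage points (p = 0.0556 by an exact permutation test, two-sided and within stages, whose 36 arrangements can give no smaller p). The 4 libraries with fewer gut cells, which the test left out, went the other way. Hindgut was 16.7 and 27.8% of 18 gut cells each in E9.5 WT B and C. It was 27.3 and 45.5% of 11 gut cells each in E9.5 null B and C. The Foregut and Midgut shares overlapped between genotypes (differences of 4.17 and 8.39 points, exact permutation tests, p = 0.444 and 0.333).

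The mapped age of the gut cells overlapped between genotypes. The mean atlas stage of E9.5 Hindgut cells was embryonic day 8.59 ± 0.144 in null and 8.49 ± 0.106 in WT libraries (SD, n = 4 each). Over both stages the difference of null minus WT was 0.0567 days in Hindgut, 0.0185 in Midgut and -0.0317 in Foregut (exact permutation tests, p = 0.419, 0.833 and 0.671).

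Rhox5 and Trap1a marked a class of Hindgut cells that was found among WT cells and in 0 null cells. Rhox5 encodes a homeobox factor of a cluster active in reproductive and extra-embryonic tissue, and Trap1a is known as a tumour rejection antigen. Both genes are on the X chromosome (GRCm38, Rhox5 at chrX:37804842-37808876 and Trap1a at chrX:139333683-139338169). After thinning, 20 of 68 WT Hindgut cells (29.4%, 95% Wilson interval 19.9 to 41.1%) had a UMI of either gene, against 0 of 43 null Hindgut cells, for which the upper Wilson limit is 8.20% and 3 counts of 43 would be 6.98%. By library the E8.5 WT shares were 12.5 and 35.0%, the E9.5 WT shares were 22.2, 0, 20 and 39.1% (A to D), and all 6 null libraries stood at 0. The WT library at 0, E9.5 WT B, held 3 Hindgut cells, and the other 5 WT libraries lay above every null library. The mean difference was -22.0 percentage points (p = 0.0238 by the same exact permutation test, for which these shares can give no smaller p), and 0.167 after Benjamini-Hochberg adjustment over the 21 such tests made, which it did not pass.

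Each gene alone gave the same direction. Rhox5 had a UMI in 13 of 68 WT and 0 of 43 null Hindgut cells (-17.4 points, exact permutation test, p = 0.0238) and Trap1a in 15 of 68 and 0 of 43 (-15.3 points, p = 0.0714). Without thinning, 22 of 68 WT Hindgut cells (32.4%) and 0 of 43 null cells carried either gene, with a median depth of 26366 UMIs in WT and 33166 in null cells. Free RNA can put a UMI in any droplet, and among Erythroid cells, which should lack both genes, the thinned share was 0.768% in WT and 0.657% in null cells at median depths of 29651 and 40723 UMIs.

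The share was lower towards the front of the gut. After thinning, in Midgut 4 of 74 WT cells (5.41%) and 0 of 92 null cells had a UMI of either gene, and in Foregut 1 of 91 WT and 0 of 101 null cells did, where the counts of 0 have upper Wilson limits of 4.01% and 3.66%, and 3 counts would be 3.26% and 2.97%. Without thinning, null cells of both types carried these UMIs, 2 of 92 in Midgut beside 6 of 74 WT cells, and 1 of 101 in Foregut beside 3 of 91. The genotype difference in Hindgut went beyond that in Foregut by -21.3 percentage points (exact permutation test of the difference, p = 0.0238, adjusted p over 6 such tests 0.0714) and beyond that in Midgut by -15.7 points (p = 0.0714, adjusted p 0.0857), and neither passed the correction. In cells with the label Gut tube, 28 of 143 WT and 5 of 107 null cells had a UMI of either gene, and in cells with the label Visceral endoderm 124 of 128 WT and 4 of 13 null cells did. In Mesenchyme the shares were 7.91% in WT and 5.81% in null cells, nearly all from Rhox5. Trap1a had a UMI in 0.424% of WT Mesenchyme cells (95% Wilson interval 0.144 to 1.24%) and in 3 of 74 WT Midgut cells (4.05%, 1.39 to 11.3%). Null cells of some extra-embryonic types had these UMIs: in cells with the label ExE endoderm they were in 59 of 60 WT and 35 of 36 null cells, and in YS mesothelium in 43.9% of WT and 34.5% of null cells. In YS mesothelium Trap1a had a UMI in 2 of 383 WT and 0 of 220 null cells. Xist, the RNA of the inactive X chromosome, stood at 116, 622 and 625 CPM in whole libraries E8.5 WT B, E9.5 WT B and E9.5 WT C and at 0.0844 to 0.323 CPM in the other 3 WT libraries of these stages, among them E9.5 WT D, which had the highest share of cells with Rhox5 or Trap1a. In the null libraries Xist stood at 0.185 and 4.10 CPM at E8.5 (A and B) and at 0.0866, 28.9, 13.96 and 0.174 CPM at E9.5 (A to D).

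**Figure D2:**
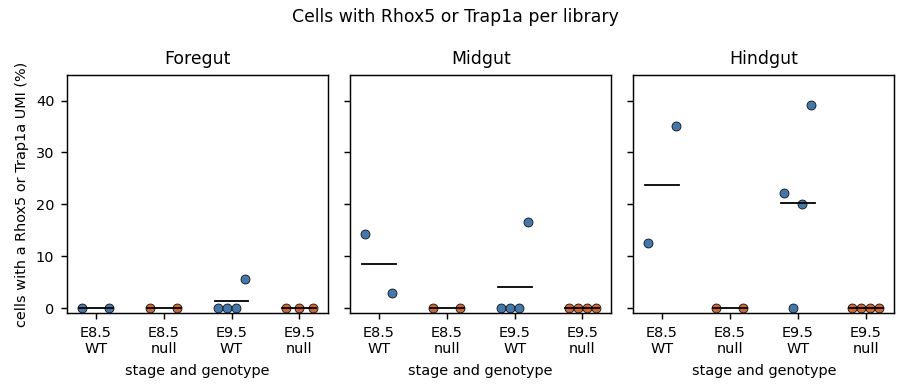
Percent of cells with a UMI of Rhox5 or Trap1a in each library (points, with bars for group means) after thinning to 10000 UMIs, in the 3 gut types by stage and genotype. All null libraries stand at 0, and in Hindgut 5 of 6 WT libraries lie between 12.5 and 39.1%.

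The WT Hindgut cells with these marks had further features in common, though not all of them at both stages. The 22 cells with a UMI of either gene, 8 at E8.5 and 14 at E9.5, were set beside the 46 WT Hindgut cells without one. Since this division and the genes named for it were chosen after values were seen, what follows is a description and carries no test. Log2 fold changes of marked over unmarked cells come from an edgeR fit with the library as a block, over the 5 WT libraries that held both kinds. E9.5 WT D gave 11 of the 22 cells. Counts of cells with a UMI in these classes were not thinned. The median depth was 19909.5 UMIs in marked WT, 28380 in unmarked WT and 33166 in null Hindgut cells.

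Cdkn2a, which encodes the cell cycle inhibitor p16 and the p53 activator ARF, set the classes apart. It had a UMI in 17 of 22 WT cells with Rhox5 or Trap1a, in 0 of 46 WT cells without and in 6 of 43 null cells. In the marked cells it stood at 199, 89.3, 176, 74.0 and 127 CPM (E8.5 WT A and B, E9.5 WT A, C and D), and in the unmarked cells at 0 CPM in all 6 WT libraries, so that it was at least 54.6-fold higher in the marked cells on a floor of 3 UMIs over the group. The classes did not overlap. Xlr3a, an X-linked gene, had a UMI in 19 of 22, 3 of 46 and 1 of 43 cells of the 3 classes. Higher in the marked cells were also Cdkn1a, the cell cycle inhibitor p21 (log2 fold change 1.46 ± 0.28), H19 (1.31 ± 0.25), the matrix protein gene Sparc (1.58 ± 0.24) and Igfbp2, an IGF-binding protein (1.14 ± 0.20), and lower were Pclaf, a replication factor (-1.08 ± 0.21), and the imprinted Nnat (-1.52 ± 0.32).

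Phlda3, Ccng1 and Cdkn1a, known as p53 targets, were found more often in marked than in unmarked WT cells. Whether p53 was active was not tested. Phlda3 had a UMI in 16 of 22 marked and 10 of 46 unmarked WT cells and in 18 of 43 null cells, and Ccng1 in 15 of 22, 10 of 46 and 18 of 43. Cdkn1a had a UMI in 19 of 22, 31 of 46 and 33 of 43 cells. Its level was 99.3, 339, 337, 24.7 and 204 CPM in the marked and 97.0, 161, 48.9, 5.50 and 89.9 CPM in the unmarked cells of the same 5 libraries, higher in 5 of 5 and nearly level in E8.5 WT A, which held 1 marked cell. Its log2 fold change was 1.13 without E9.5 WT A and 1.56 without E9.5 WT D.

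Cdx4 showed the opposite pattern. It had a UMI in 2 of 22 marked WT Hindgut cells, in 37 of 46 unmarked ones and in 36 of 43 null cells. Its level was 0, 0, 0, 0 and 27.0 CPM in the marked and 145, 285, 151, 44.0 and 348 CPM in the unmarked cells, lower in all 5 libraries, a ratio of 0.0658 (95% counting interval 0.0262 to 0.137, from 7 against 295 UMIs). Cdx4 is X-linked, as are Rhox5, Trap1a and Xlr3a. Its paralogue Cdx2, on chromosome 5, was found in 18 of 22, 40 of 46 and 34 of 43 cells (log2 fold change 0.48 ± 0.26). Epcam, Foxa2, Hoxc9, Hoxd11 and T had log2 fold changes of 0.02 to 0.55, and Hoxc9 was found in 19 of 22, 39 of 46 and 37 of 43 cells. Some features differed by stage. Rhox5 stood at 869 CPM in the marked cells at E8.5 (8 of 8 cells) and 108 CPM at E9.5 (8 of 14). Apoe, a lipid carrier, stood at 397 and 491 CPM in marked and 21.5 and 74.5 CPM in unmarked cells of E8.5 WT A and B. In E9.5 WT A, C and D it stood at 0, 24.7 and 27.0 against 8.90, 88.0 and 28.4 CPM. Rbp4 stood at 295 against 18.7 CPM at E8.5 and 63.4 against 52.3 CPM at E9.5. The marked cells were shallower in 4 of the 5 libraries, with medians of 10074, 14887, 40550 and 23476 UMIs against 26842, 18957, 41766 and 33331 in E8.5 WT A and B and E9.5 WT C and D, and the part of depth was not tested.

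**Figure D3:**
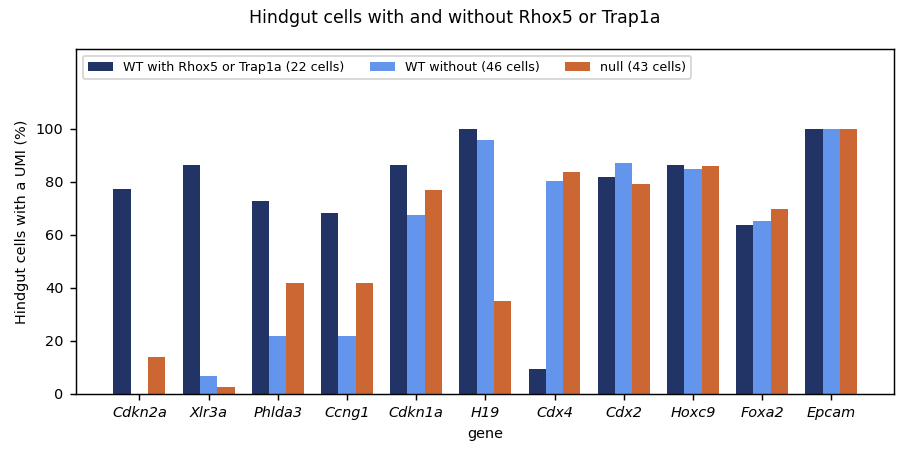
Percent of Hindgut cells with a UMI of each gene (not thinned, both stages together) in WT cells with Rhox5 or Trap1a, WT cells without, and null cells. Cdkn2a is in 17 of 22 marked and 0 of 46 unmarked WT cells and Cdx4 in 2 of 22 and 37 of 46, while Epcam is in all cells of the 3 classes.

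The next comparison asks which genes differed between null and WT cells of the same gut type and stage. UMI counts were summed per library and type and tested with edgeR's quasi-likelihood test, and a gene was called if its Benjamini-Hochberg adjusted p was under 0.05 and its absolute log2 fold change over 1. Few genes were called. In Foregut they were 2 of 6024 (0.0332%, with 0.0166% higher and 0.0166% lower) at E8.5 and 2 of 5285 (0.0378%, with 0.0189% higher and 0.0189% lower) at E9.5. In Midgut they were 2 of 6368 (0.0314%, with 0.0314% higher and 0.0% lower) at E8.5 and 2 of 3111 (0.0643%, with 0.0321% higher and 0.0321% lower) at E9.5, and in Hindgut 7 of 4022 (0.174%, with 0.0497% higher and 0.124% lower) at E8.5 and 2 of 4131 (0.0484%, with 0.0242% higher and 0.0242% lower) at E9.5. E9.5 null C had 1 Foregut cell and was left out of the Foregut tests. With 2 libraries a group, as at E8.5, groups often do not overlap by chance alone. An exact permutation test on them has 6 arrangements and can give no p under 0.333. The share of all genes whose groups did not overlap is not given, so non-overlap at E8.5 is description only. The calls at E8.5, 11 in all, rested on 2 libraries a group. With any 1 left out a group holds 1 library, so no such count is used here. With all libraries of a type in 1 fit, the calls at E8.5 were 0 in Foregut, 1 in Midgut and 0 in Hindgut. The 6 calls at E9.5 became 5 to 11 with a library left out, the highest without null B. On simulated data the test found 64% of genes changed by 1.5 on the log2 scale in E8.5 Midgut (6129 genes), 72.7% in E8.5 Hindgut (3791 genes), 94.4% in E9.5 Foregut (5090 genes) and 97.1% in E9.5 Hindgut (4069 genes), and 6.13, 1.81, 3.24 and 1.10% of its calls there were false. The simulated counts took each gene's spread from a trend over all genes, with no spread of its own. These shares are therefore no measure of how many real changes were found. E8.5 Foregut and E9.5 Midgut were not simulated.

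The genes called in more than 1 of these tests were H19, Igf2, Grb10 and Cwc22. The first 3 are imprinted, that is, expressed from the copy of 1 parent. They were the only called members of a list of 21 genes that are imprinted or known to vary between ESC lines, which was chosen with earlier results known: 11 to 17 of the list were tested per type and stage, and 2 were called in Foregut at E8.5 and 1 in each other test, beside 0.0314 to 0.174% of all genes tested. H19, a growth-restraining noncoding RNA made from the maternal copy (chr7:142575529-142578143), was lower in null cells. In Foregut at E8.5 it stood at 688 and 856 CPM in WT and 56.3 and 50.1 CPM in null libraries (log2 fold change -3.82 ± 0.19, edgeR adjusted p 6.22e-10). In Hindgut it stood at 174 and 373 against 22.5 and 0 CPM at E8.5 (-3.93 ± 0.48, adjusted p 1.70e-05), and at 352, 464, 576 and 454 against 41.2, 8.36, 7.67 and 64.8 CPM at E9.5 (-3.62 ± 0.38, adjusted p 0.00536). In Midgut H19 was not called, although the groups did not overlap: 579 and 417 against 133 and 3.53 CPM at E8.5, and 793, 1283, 499 and 1009.6 against 88.0, 0, 4.06 and 46.6 CPM at E9.5. Foregut at E9.5 was alike in this, with 1235, 1099.6, 1095 and 1598 against 37.5, 336 and 75.8 CPM (null A, B and D, adjusted p 0.998). The null libraries were low in every case and differed widely among themselves. Without the null cells that lacked a tdTomato UMI, the Foregut difference at E8.5 was -4.38 and no longer passed (adjusted p 0.759).

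Igf2, the growth factor gene near H19 that is expressed from the paternal copy (chr7:142650766-142666816), was higher in null Foregut and Midgut at E8.5. It stood at 175 and 201 CPM in WT and 505 and 456 CPM in null Foregut (1.37 ± 0.16, edgeR adjusted p 3.84e-04), and at 107 and 127 and 412 and 405 CPM in Midgut (1.80 ± 0.24, adjusted p 0.00409). In Hindgut at E8.5 it was not called and the groups overlapped, at 51.1 and 76.3 CPM in WT and 53.5 and 99.6 CPM in null libraries. At E9.5 Igf2 was not called in any of the 3 types, with log2 fold changes of 0.90 ± 0.30 in Foregut, 0.61 ± 0.24 in Midgut and 0.49 ± 0.21 in Hindgut (edgeR adjusted p 0.998 or higher).

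Grb10, an imprinted growth inhibitor that binds the insulin and IGF receptors (chr11:11930508-12038683), was lower in null Foregut and Midgut at E9.5. In Foregut it stood at 651, 594, 660.2 and 552 CPM in WT and 36.2, 37.8 and 52.3 CPM in null libraries (A, B and D, -3.81 ± 0.19, edgeR adjusted p 1.90e-10). In Midgut it stood at 550.1, 678, 408 and 415 against 5.68, 0, 4.06 and 0 CPM, a ratio of 0.00643 (95% counting interval 0.00132 to 0.0189, 3 against 385 UMIs, adjusted p 4.39e-13). In Hindgut it was not called, at 293, 441, 427 and 365 against 36.3, 0, 0 and 0 CPM, which do not overlap. At E8.5 the 2 null libraries stood far apart, at 34.3 and 537 CPM in Foregut, 70.2 and 413 CPM in Midgut and 5.63 and 187 CPM in Hindgut (A and B), and null A was the low one in each type.

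Cwc22, which encodes a splicing factor (chr2:77881159-77946375), was higher in null cells of all 3 types at E9.5. In Foregut it stood at 49.0, 34.1, 34.9 and 30.1 CPM in WT and 159, 170.2 and 121 CPM in null libraries (2.05 ± 0.23, edgeR adjusted p 1.13e-04). In Midgut it stood at 47.8, 67.2, 26.8 and 27.7 against 176, 224, 215 and 135 CPM (2.11 ± 0.30, adjusted p 2.30e-04), and in Hindgut at 34.8, 22.6, 49.5 and 48.4 against 172, 117, 188 and 176 CPM (1.97 ± 0.24, adjusted p 6.04e-05). Every null library lay above every WT library of its type, which the rule for naming called genes required. At E8.5 it was not called, although the groups did not overlap either: 108 and 80.3 against 152 and 156 CPM in Foregut, 42.9 and 37.6 against 95.5 and 125 CPM in Midgut and 40.9 and 67.9 against 124 and 74.7 CPM in Hindgut (edgeR adjusted p 0.995, 0.298 and 1.000). With both stages in 1 fit and stage as a term, Cwc22 was called in all 3 types and H19 in Hindgut, as 1 of 6153 genes in Foregut (0.0163%), 1 of 5193 in Midgut (0.0193%) and 2 of 5372 in Hindgut (0.0372%, with 0.0186% in each direction).

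These 4 genes were called in other tissues as well. Other cell types were tested with the same fit, but only on libraries with more than 15 cells of the type. Of those tested at E9.5, Cwc22 was called higher in 37 of 37, Grb10 lower in 30, H19 lower in 9 and Igf2 higher in 4. At E8.5 H19 was called lower in 1 of 20 and the other 3 genes in 0. Gut cells sorted as null that lacked a tdTomato UMI differed from the rest in E8.5 null A: the 7 such cells had 405 CPM of H19 and 405 CPM of Grb10, against 57.8 and 19.3 CPM in the 98 with one. In E8.5 null B the 9 such cells had 80.6 CPM of H19 and 346 CPM of Grb10, against 3.77 and 464 CPM in the other 33.

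**Figure D4:**
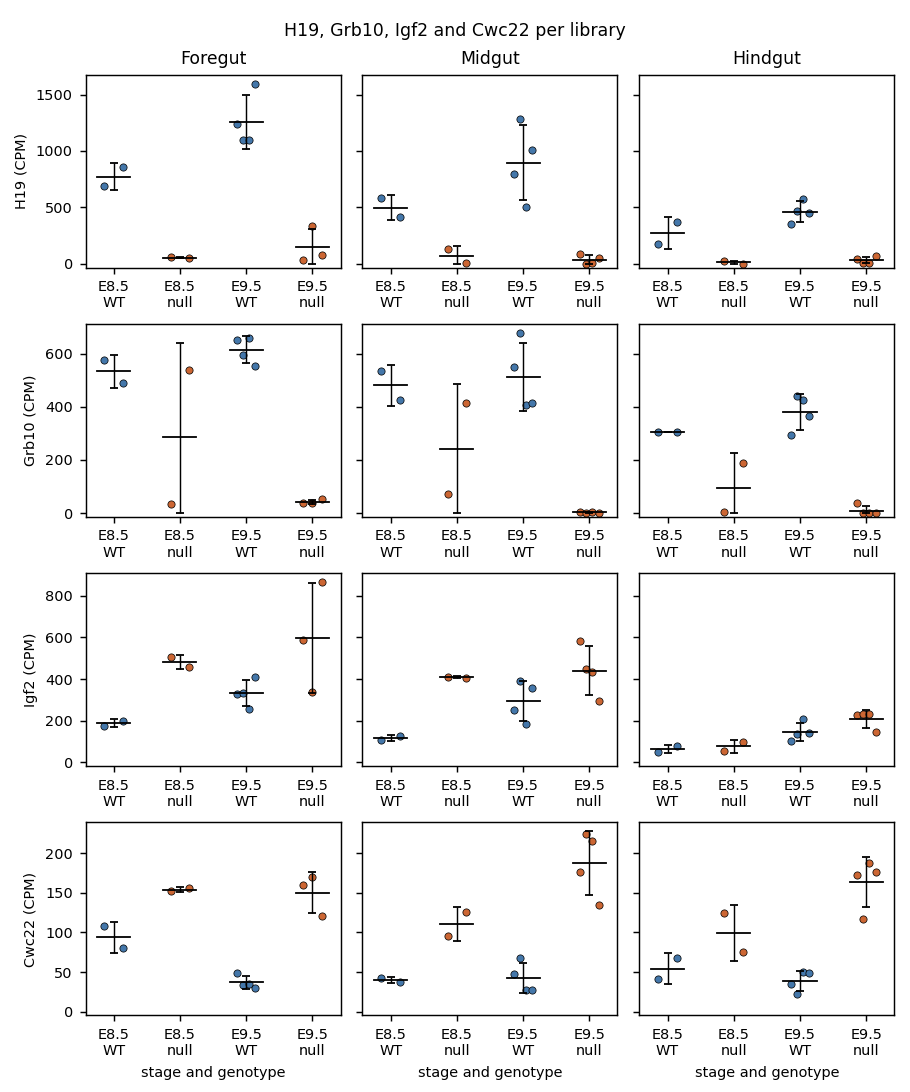
CPM of H19, Grb10, Igf2 and Cwc22 in each library with at least 3 cells of the type (points), with group means and SD (bars, cut at 0), by stage and genotype. H19 is low in the null libraries, Grb10 is low in them at E9.5 and split between the 2 null libraries at E8.5 (34.3 and 537 CPM in Foregut), and Cwc22 at E9.5 is higher in every null library than in any WT library of its type.

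Rbp4, the retinol carrier made by yolk sac and early gut endoderm, was the remaining call in Midgut. At E8.5 it stood at 2152 and 1938 CPM in WT and 4194 and 6066 CPM in null Midgut (1.34 ± 0.23, edgeR adjusted p 0.0459). At E9.5 the groups overlapped, at 175, 648, 177 and 989 CPM in WT and 687, 134, 471 and 300.2 CPM in null libraries. The 20 products of visceral and yolk sac endoderm, a list that holds Rbp4, summed to 4652 to 4745 CPM in WT and 7274 to 10390 CPM in null Midgut libraries at E8.5, with no overlap, and to 363 to 1833 and 688 to 1167 CPM at E9.5, with overlap. Of the 13 tested at E8.5, Rbp4 was the 1 called higher, beside 0.0314% of all genes tested, and 8 were positive (median 0.48 beside 0.00). Ttr, the thyroid hormone carrier, stood at 1238 and 1404 CPM in WT and 1661 and 2104 CPM in null Midgut and was not called. The part of such cells or RNA in the Rbp4 difference was not tested. In Foregut 0 of 9 such products tested were called in either direction between genotypes at E8.5, and in Hindgut 0 of 1. Rbp4 was called in 0 of 16 other cell types at E8.5.

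Hindgut at E8.5 held the other calls, 4 lower and 2 higher in null cells. With H19, the 7 Hindgut calls became 1 with DESeq2, higher in null cells, and 4 with limma-voom, all lower. With all libraries of the type in 1 fit they became 0. Fgf8, a growth factor of the tailbud and posterior endoderm (chr19:45736798-45742915), stood at 194 and 308 CPM in WT and 90.1 and 87.1 CPM in null libraries (-1.51 ± 0.31, edgeR adjusted p 0.00475). Tlx2, a homeobox gene of the posterior embryo (chr6:83068324-83070293), stood at 107 and 172 against 25.3 and 37.3 CPM (-2.33 ± 0.48, adjusted p 0.00475). Lmo2, a transcriptional cofactor best known from blood, stood at 56.2 and 99.0 against 8.45 and 12.4 CPM (-3.06 ± 0.65, adjusted p 0.00752), and Yae1d1 at 271 and 169.7 against 76.0 and 87.1 CPM (-1.42 ± 0.34, adjusted p 0.0362). Called genes were named if their groups did not overlap, so that all 4 lay lower in both null libraries follows from this choice.

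The genes called higher were Cst3 and Nepn. Cst3, a secreted protease inhibitor, stood at 261 and 215 CPM in WT and 2960.2 and 1419 CPM in null Hindgut (3.29 ± 0.36, edgeR adjusted p 0.0187), and Nepn at 15.3 and 59.4 against 138 and 212 CPM (1.93 ± 0.43, adjusted p 0.0180). At E9.5 none of the 6 was called in Hindgut. Fgf8 then overlapped, at 125, 249, 27.0 and 188 CPM in WT and 16.9, 8.36, 107 and 59.6 CPM in null libraries, as did Cst3, at 867, 238, 382 and 159.8 and 1048, 2391, 418 and 2016 CPM, and Nepn was at 0 in all 8. In other cell types at E8.5, Fgf8 was called in 0 of 9, Lmo2 in 0 of 4, and Cst3 and Yae1d1 in 0 of 20 each.

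Since the marked Hindgut cells were all WT, the Hindgut tests were repeated without them. With the 8 marked WT cells of E8.5 left out, H19 (-3.08, edgeR adjusted p 0.00607) and Cst3 (3.40, adjusted p 0.00607) were the 2 of the 7 that still passed. The other 5 kept their direction and lost the call. Fgf8 then stood at -1.24 (adjusted p 0.401), Tlx2 at -2.22 (0.110), Lmo2 at -2.73 (0.575), Yae1d1 at -1.42 (0.401) and Nepn at 1.54 (0.818), in fits on 20 WT cells in place of 28. At E9.5 the H19 call was lost as well (-3.37, adjusted p 0.200) and that of Cwc22 was not (2.19, adjusted p 3.71e-05). E8.5 null B gave 4 Hindgut cells with a median mitochondrial share of 0.025%, beside 1.055 to 1.6% in the other 3 E8.5 Hindgut libraries. With all Hindgut libraries kept in 1 fit, 0 calls were made at E8.5.

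Lists of regional genes showed few calls by genotype. Of 17 posterior gut regulators, 7 were tested in Hindgut at E8.5: 2 were lower (Fgf8 and Tlx2), beside 0.124% of all genes tested, 5 had negative log2 fold changes, beside 51.5% of all, and the median was -1.28 beside -0.01 over all genes tested. At E9.5 0 of 7 were called and 6 were negative, beside 50.2% of all genes, with a median of -0.61. Of 39 Hox genes, 14 were tested in Hindgut at E8.5 and 20 at E9.5, and 0 were called (medians -0.07 and -0.02). Of 22 Wnt pathway genes 8 of 9 tested were negative in Hindgut at E8.5 and 6 of 6 at E9.5 (medians -0.83 and -0.23), and of 18 FGF pathway genes 6 of 7 and 7 of 8 (medians -0.47 and -0.24). Fgf8 was the 1 called member of these 2 lists. The list counts were not repeated without the marked WT Hindgut cells, and the part of those cells in them was not tested.

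The STAT3 pathway list had 30 members, of which 3 to 9 passed the low-count filter in a type and stage, and 0 were called. Stat3 itself was too low to test in the gut: in Hindgut it was at 0 in all 6 null libraries and at 5.11 and 11.3 CPM in WT at E8.5 and 0, 0, 13.5 and 2.93 CPM at E9.5, which overlap. Socs3, the feedback inhibitor that STAT3 induces, stood at 11.7 and 17.6 CPM in WT and 10.6 and 8.35 CPM in null Foregut at E8.5, and at 8.64, 5.68, 18.8 and 1.77 and 6.70, 9.46 and 5.41 CPM at E9.5. Of 19 cell cycle genes, 15 to 19 were tested per type and stage and 0 were called, with medians between -0.01 and 0.16. Of 18 anterior gut regulators 9 of 11 tested were negative in Foregut at E8.5 and 6 of 8 at E9.5, beside 50.1 and 48.8% of all genes (medians -0.57 and -0.31), and 0 were called. Of the lists for pan-endoderm, liver and pancreas buds, Hedgehog, BMP, retinoic acid and junctions 0 members were called by genotype in any type.

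In no type did a gene pass for a change of its genotype effect between E8.5 and E9.5 in edgeR (0 of 6153, 5193 and 5372 genes in Foregut, Midgut and Hindgut, with 106, 97 and 116 at an unadjusted p under 0.05), while DESeq2 called 1, Grb10 in Midgut. Between types at E9.5, 0 genes passed for a different genotype effect in Midgut against Foregut, Hindgut against Foregut or Hindgut against Midgut (124, 149 and 135 at an unadjusted p under 0.05). At E9.5 blood markers moved with genotype: 14 genes of endothelium and blood summed to 193 to 843 CPM in WT and 16.7 to 60.5 CPM in null Hindgut libraries, with 5 of the 14 at 0 throughout in each. The haemoglobin genes made up most of this, Hba-x at 293, 56.6, 94.4 and 226 CPM in WT and 19.4, 8.36, 7.67 and 15.5 CPM in null libraries and Hbb-y at 449, 158, 72.0 and 305 and 19.4, 0, 0 and 12.96 CPM, while Gata1 and Tie1 were at 0 in all 8 Hindgut libraries. In Foregut the sums were 209 to 5169 CPM against 23.6 to 66.0 CPM, and in Midgut 159 to 929 CPM against 17.9 to 131 CPM. At E8.5 the genotypes overlapped, with sums of 931 to 1082 CPM in WT and 250.4 to 5926 CPM in null Foregut, 838 to 1263 and 288 to 1076 CPM in Midgut, and 868 to 1242 and 261 to 1146 CPM in Hindgut. At E9.5 0 of the 14 were among the genes tested, and their part in the calls was not tested.

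Pdx1, the factor of duodenum and pancreas, had the lowest p among the 21 tests of shares of cells with a UMI, in Midgut. After thinning the share was 7.14 and 17.1% in WT and 20.5 and 12% in null libraries at E8.5, and 11.1, 0, 0 and 0% and 35.7, 33.3, 20 and 16.7% at E9.5. The groups overlapped at E8.5 and not at E9.5. The difference was 13.9 percentage points (exact permutation test, p = 0.0190, adjusted p over 21 tests 0.167), which did not pass the correction, and the E9.5 null shares came from 8 of 28 cells.

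The last comparison follows each gut type from E8.5 to E9.5, in WT and in null cells apart. Stage and collection cannot be told apart. In Foregut 27 of 5610 (0.481%, with 0.0713% higher and 0.41% lower) genes were called in WT and 39 of 6579 (0.593%, with 0.182% higher and 0.41% lower) in null cells. In Midgut the calls were 75 of 4132 (1.82%, with 0.653% higher and 1.16% lower) in WT and 146 of 5078 (2.88%, with 1.12% higher and 1.75% lower) in null cells, and in Hindgut 53 of 4492 (1.18%, with 0.356% higher and 0.824% lower) and 74 of 5102 (1.45%, with 0.49% higher and 0.96% lower). Over the 3 types this made 155 calls in WT and 259 in null cells. The E8.5 groups held 2 libraries each, so no count without 1 of them is used here. Leaving out an E9.5 library gave 23 to 45 calls in WT and 22 to 70 in null Foregut. It gave 42 to 76 and 82 to 184 in Midgut, and 35 to 73 and 62 to 109 in Hindgut. The WT and null comparisons are not independent, since both genotypes came from the same embryo pools. The genes called in both were 11 in Foregut (40.7% of the WT and 28.2% of the null calls), 41 in Midgut (54.7 and 28.1%) and 22 in Hindgut (41.5 and 29.7%). Prtg, an immunoglobulin superfamily receptor of the early embryo, was the 1 gene called in both genotypes in all 3 types, and it was lower at E9.5.

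In Hindgut glycolytic genes were lower at E9.5 in both genotypes. Pgk1, phosphoglycerate kinase, stood at 1303 and 1320.5 CPM in WT and 1865 and 1332 CPM in null libraries at E8.5, and at 481, 588, 531 and 598 CPM and 516, 753, 479.7 and 591 CPM at E9.5 (WT -1.36 ± 0.15, null -1.62 ± 0.18, edgeR adjusted p 9.34e-09 and 9.13e-08). Ldha, lactate dehydrogenase, stood at 2361 and 2830.3 CPM and 3408 and 2527 CPM at E8.5, and at 1306, 1641, 1034 and 1229.9 CPM and 1155, 1497, 1005 and 1306 CPM at E9.5 (-1.12 ± 0.14 and -1.39 ± 0.16, adjusted p 1.21e-06 and 1.90e-07). All E9.5 libraries lay below all E8.5 libraries for both genes. Aldoa, Tpi1 and Pfkl, enzymes of the same pathway, fell by 1.19, 1.05 and 1.13 on the log2 scale in WT and fell by 1.52, 1.41 and 1.24 in null cells.

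The transporters that bring glucose in and lactate out fell as well. Slc2a1, the glucose transporter GLUT1, stood at 296 and 254 CPM in WT and 259 and 249 CPM in null Hindgut at E8.5, and at 104, 33.9, 89.9 and 89.4 CPM and 43.6, 41.8, 42.2 and 111 CPM at E9.5 (-1.74 ± 0.25 and -2.11 ± 0.32, edgeR adjusted p 2.63e-06 and 1.41e-04). Slc16a3, a lactate exporter, stood at 219.7 and 342 CPM and 338 and 361 CPM at E8.5, and at 76.6, 79.2, 27.0 and 88.0 CPM and 87.2, 33.4, 38.4 and 70.0 CPM at E9.5 (-2.11 ± 0.28 and -2.56 ± 0.28, adjusted p 1.20e-05 and 2.03e-08). Of 21 genes of glycolysis and lactate export, a list written after these values were seen, 16 were tested in Hindgut: 8 were called lower in WT and 9 in null cells, beside 0.824 and 0.96% of all genes tested, 16 of 16 were negative in each, beside 49.6 and 47.9% of all, and the medians were -1.08 and -1.25 beside 0.00 and 0.02 over all genes tested. In Midgut 4 and 3 of 16 were called lower, beside 1.16 and 1.75% of all genes tested (medians -0.45 and -0.47), and in Foregut 0 of 16 in either genotype (medians 0.06 and 0.14). Whether the types differ in this change was not tested.

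The same genes fell in some other cell types. Of 31 other types tested in WT and 19 in null cells, Slc2a1 was called lower in 17 and 10, Slc16a3 in 15 and 10, Pgk1 in 11 and 7, Ldha in 10 and 4, Tpi1 in 4 and 3 and Aldoa in 2 and 3. Lin28a, an RNA-binding regulator of developmental timing, stood at 229.9 and 277 CPM in WT and 172 and 237 CPM in null Hindgut at E8.5 and at 55.7 to 109 CPM over the 8 libraries at E9.5 (-1.62 ± 0.25 and -1.24 ± 0.29), and it was called lower in 18 and 13 other types. Prtg stood at 291 and 229 CPM and 279 and 162 CPM in Hindgut at E8.5 and at 25.1 to 157 CPM at E9.5, and was called lower in 24 and 13 other types.

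The last Hox paralogues came up in Hindgut between the stages. Summed over the 12 genes of groups 10 to 13 they stood at 166 ± 75.4 CPM in WT and 135 ± 156 CPM in null Hindgut at E8.5 (n = 2 each) and at 1261 ± 611 and 1144 ± 309 CPM at E9.5 (n = 4 each). Groups 6 to 9 stood at 1766 ± 242 and 1539 ± 129 CPM at E8.5 and at 1068 ± 280.1 and 1181 ± 244 CPM at E9.5. Hoxc11 stood at 5.11 and 0 CPM in WT and 2.82 and 0 CPM in null cells at E8.5, and at 73.1, 56.6, 8.99 and 76.2 CPM and 31.5, 75.3, 49.9 and 31.1 CPM at E9.5. Its ratio was 34.3 in WT (95% counting interval 5.99 to 1373) and 17.4 in null cells (2.97 to 699.9), each against 1 UMI (edgeR adjusted p 0.0352 and 0.0225). Hoxd10 rose in both genotypes too (adjusted p 0.00341 and 0.0464). Of the Hox genes tested, 3 of 22 were called higher and 1 lower in WT and 5 of 25 higher and 1 lower in null Hindgut, beside 0.356% higher and 0.824% lower of all genes tested in WT and 0.49% and 0.96% in null cells. The lower ones were Hoxd9 in WT (-1.65 ± 0.32) and Hoxa7 in null cells (-1.09 ± 0.26). Hox genes near 0 at E8.5, such as Hoxc11, passed the low-count filter through E9.5 and could hardly be called lower.

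Other posterior genes were called in 1 genotype. Hoxd11 stood at 15.3 and 11.3 CPM in WT and 39.4 and 0 CPM in null Hindgut at E8.5, and at 421, 792, 144 and 454 CPM and 322, 435, 238 and 365 CPM at E9.5. It was called in null cells (3.28 ± 0.40, edgeR adjusted p 8.26e-06) and not in WT (4.92 ± 1.13, adjusted p 0.233). The same held for Hoxc10 (adjusted p 0.0464 in null and 0.456 in WT cells) and the reverse for Hoxd13 (adjusted p 0.345 in null and 4.57e-04 in WT cells). Cdx2 stood at 237 and 237 CPM at E8.5 and 60.5, 92.0, 61.4 and 88.1 CPM at E9.5 in null Hindgut (-1.80 ± 0.28, adjusted p 3.81e-05), and in WT at 204 and 223 CPM and 125, 238, 36.0 and 182 CPM, which overlap (-0.72 ± 0.58, adjusted p 0.749). In null Hindgut Cdx4 fell by 1.21 on the log2 scale, and Wnt5a, a ligand of tail outgrowth (1.25 ± 0.33), and the foregut and pouch factors Sox2 (1.83 ± 0.46) and Pax9 (3.69 ± 0.68) rose, while in WT Hindgut the endoderm factor Sox17 fell by 3.004. None of these passed for a difference between genotypes in its change with stage. E9.5 WT C, with 5 Hindgut cells, was the lowest of the WT libraries at E9.5 for Hoxc10, Hoxc11, Hoxd10, Hoxd11, Cdx2 and Epcam. The median share of nearest atlas cells with the label was 0.40 in its Hindgut cells and 0.36 in those of E9.5 null C. In the other Hindgut libraries it was 0.72 to 0.88. In Foregut and Midgut libraries with at least 3 cells it ran from 0.52 to 1.

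**Figure D5:**
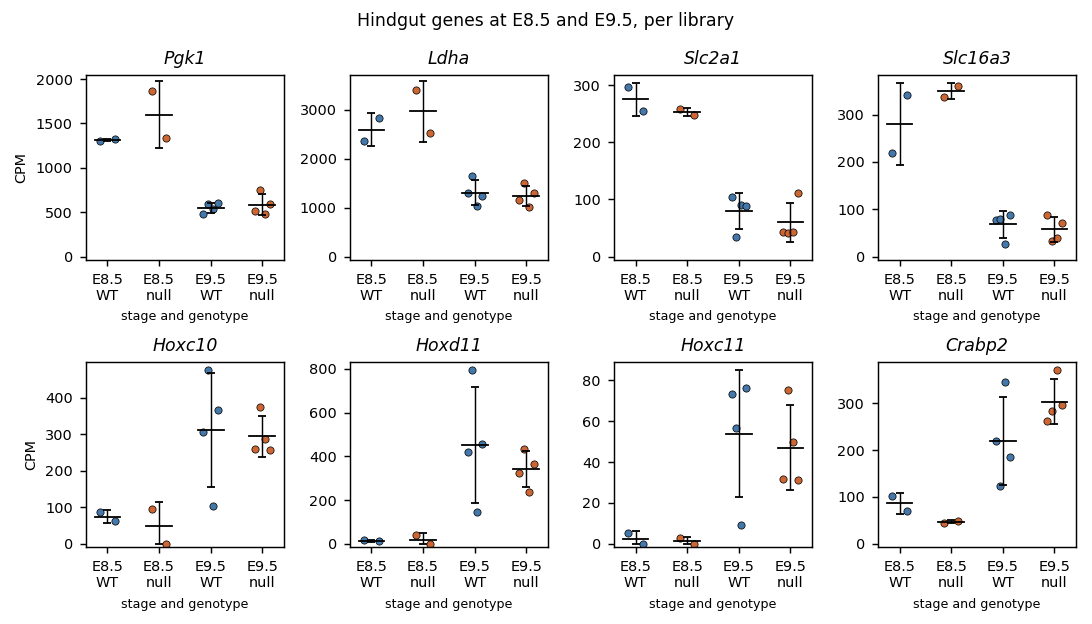
CPM of 4 genes of glucose use and 4 genes that rise with stage in Hindgut, in each library (points), with group means and SD (bars, cut at 0). Pgk1, Ldha, Slc2a1 and Slc16a3 are lower in every E9.5 library than in any E8.5 library, and Hoxd11 goes from at most 39.4 CPM to 144 CPM or more.

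Midgut lost products of yolk sac-type endoderm between the stages. Ttr, which encodes the thyroid hormone carrier transthyretin, stood at 1238 and 1404 CPM in WT and 1661 and 2104 CPM in null Midgut at E8.5, and at 19.9, 153, 64.4 and 173 CPM and 99.4, 224, 146 and 129 CPM at E9.5 (-3.87 ± 0.59 and -3.81 ± 0.22, edgeR adjusted p 0.0476 and 5.87e-10). Apoe, the lipid carrier, went from 202 to 961 CPM over the 4 E8.5 libraries to 20.7 to 80.6 CPM over the 8 at E9.5 (-3.27 ± 0.34 in WT and -4.13 ± 0.45 in null cells). Of 20 such products, 5 of 10 tested were called lower in WT and 5 of 11 in null Midgut, beside 1.16 and 1.75% of all genes tested (medians -2.20 and -3.68 beside 0.01 and 0.02 over all genes), and 0 higher. The called members were Ttr, Apoe, the calcium-binding S100g and the peptidase gene Dpp4 in both genotypes, the endocytic adaptor Dab2 in WT and the lipoprotein gene Apoa1 in null cells. In Foregut 1 of 14 was called lower in WT and 1 of 14 higher in null cells, S100g and Apoa1 (medians 1.02 and 0.66). Of all genes tested there, 0.41% were called lower in WT and 0.182% higher in null cells. In Midgut, products near 0 at E9.5 entered through E8.5 and could hardly be called higher, such as S100g (2 UMIs in WT beside 104).

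Midgut also gained posterior Hox genes. Hoxa10 stood at 0 and 0 CPM in WT and 10.98 and 0 CPM in null Midgut at E8.5, and at 51.8, 61.1, 59.0 and 34.6 CPM and 54.0, 35.8, 89.3 and 51.8 CPM at E9.5. It was at least 15.4-fold higher at E9.5 in WT on a floor of 3 UMIs over the group (edgeR adjusted p 0.00482), and the null difference was 3.08 ± 0.58 (adjusted p 0.00451). Hoxa9 stood at 0 to 12.3 CPM over the 4 E8.5 libraries and at 37.5 to 96.8 CPM over the 8 at E9.5 (3.18 ± 0.72 and 3.95 ± 0.61). Of the Hox genes tested in Midgut, 2 of 4 were called higher in WT and 9 of 13 in null cells, beside 0.653 and 1.12% of all genes tested, and 0 lower. The low-count filter let in genes that were high at 1 stage only. Hox groups 10 to 13 summed to 0.896 CPM in WT and 7.13 CPM in null Midgut at E8.5. Such genes entered through E9.5 and could hardly be called lower, so the direction of these counts is description only. Crabp2, a retinoic acid-binding protein, rose in Midgut (2.58 ± 0.41 and 2.32 ± 0.35) and in Hindgut (1.32 ± 0.31 and 2.58 ± 0.32). Slc2a1 fell by 2.79 and 2.53 on the log2 scale in Midgut, and Col4a2, a basement membrane collagen, fell by 2.11 and 2.61. Prrx1, a marker of mesenchyme, rose as well, from at most 5.37 CPM in any E8.5 library to between 0 and 113 CPM at E9.5 (3.58 ± 0.89 and 3.52 ± 0.95), and the part of other cells in this was not tested.

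Foregut had the fewest stage calls. Nrp1, a receptor for VEGF and semaphorins, stood at 61.2 and 113 CPM in WT and 116 and 100.2 CPM in null Foregut at E8.5, and at 8.64, 2.84, 2.68 and 5.31 CPM and 18.8, 14.2 and 5.41 CPM at E9.5 (-4.12 ± 0.44 and -3.10 ± 0.35, edgeR adjusted p 4.98e-05 and 2.81e-05). Apela, a peptide hormone of early endoderm, fell by 3.16 and 2.03 on the log2 scale, and Car2, a carbonic anhydrase, fell by 2.13 and 3.07. Nkx2-1, the thyroid and lung factor, was at 0 in all 4 E8.5 libraries and at 107, 31.3, 191 and 58.4 CPM in WT and 29.5, 33.1 and 83.0 CPM in null libraries at E9.5. It was at least 26.2-fold higher at E9.5 in null cells (adjusted p 0.0133) and not called in WT (adjusted p 0.465).

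At E9.5 the liver protein Alb and the thyroid and lung factor Nkx2-1 were found mostly in different Foregut cells in both genotypes, pooled over libraries. Whether cells with both were fewer than chance would give was not tested. After thinning, Alb, the albumin gene, had a UMI in 16 of 46 WT and 8 of 36 null cells and Nkx2-1 in 11 of 46 and 6 of 36, and 0 cells had both. Without thinning, Alb had a UMI in 16 of 46 WT and 11 of 36 null cells and Nkx2-1 in 16 of 46 and 9 of 36, and 1 WT cell and 0 null cells had both. After thinning, all 16 and 8 cells with Alb also had Afp, another protein of the liver bud, and 12 and 6 of them had Hhex. At E8.5 Alb was found in 1 of 45 WT and 0 of 65 null cells, and Nkx2-1 in 0 of either, with and without thinning. The mixture differed between libraries: at E9.5 Afp stood at 216, 2387, 0 and 2586 CPM in WT A to D and at 1205, 123 and 2506 CPM in null A, B and D. The thinned shares of cells with Alb and with Nkx2-1 differed between genotypes by -5.03 and -3.02 percentage points (exact permutation tests, p = 0.657 and 0.486).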

How the data were processed

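Single cells of chimeric embryos were profiled with droplet 3′ RNA sequencing. The UMI counts per gene and cell were deposited by the authors as whole numbers, made with Cell Ranger against mm10, with a table of each cell's library, quality call, doublet call (scds hybrid score), tdTomato status and transferred cell type label. The authors also deposited the percent of UMIs from mitochondrial genes per cell and the share of nearest atlas cells that carried its label, a fraction from 0 to 1. The 16 libraries were placed in groups by the stage and sort gate given for their cells.

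Gut cells were selected by label. UMIs were summed per library and type, and CPM is that sum per 1000000 UMIs of the same cells. Tests used edgeR 4.0.16 (quasi-likelihood, robust, TMM, filterByExpr) on 21275 genes, after 8178 of the 29453 in the table were left out (gene models without a proper name, mitochondrial, ribosomal protein and haemoglobin genes, Y-linked genes, Xist and Tsix). Gene positions are those of GENCODE on GRCm38. DESeq2 1.42.0, limma 3.58.1 in R 4.3.3 and Python 3.11.15 with scipy 1.17.1 served for the alternatives, thinning and exact permutation tests. A library entered with at least 3 cells of a type, a minimum chosen after the cell numbers were seen because more than 15 cells, as planned, left no type and stage with 2 libraries a group. In the gene tests of other cell types, by genotype and by stage, a library entered with more than 15 cells of the type. Shares of cells with a UMI were computed after thinning each cell to 10000 UMIs, and 0 gut cells were shallower. Not thinned were the shares named as such and the cell counts of the Hindgut classes with and without Rhox5 or Trap1a. The edgeR step was tested on simulated data with 200 changed genes.

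Genes named were Stat3, called genes whose groups did not overlap, called list members and the largest stage changes; Pgk1 and the other glycolytic genes, the genes of the Hindgut classes and those named for their regions were chosen after values were seen. The members and gene lists were chosen with earlier results of these data known.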

Additional observations from a re-analysis of the deposited data

Results flagged for a closer look

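Of 46 values by library in groups of 4 at E9.5, 5 had 1 library that stood apart from the other 3 by Dixon's criterion, where chance gives about 1 in 20. E9.5 WT D was the 1 E9.5 WT library with Rhox5 or Trap1a after thinning in Foregut, with 5.56%, which is 1 of 18 cells, and in Midgut, with 16.7%, which is 1 of 6 cells. The other 3 were at 0, so that any 1 cell in any 1 library would have stood apart by this criterion. Grb10 in Hindgut stood at 36.3 CPM in E9.5 null A and at 0 in the other null libraries, where any value above 0 would have stood apart too. Igf2 in Hindgut stood at 145 CPM in E9.5 null D, with the next null library at 225 CPM. Yae1d1 in Hindgut stood at 157 CPM in E9.5 WT C, with the next WT library at 95.3 CPM.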

How the results depend on the processing

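No paired analysis was possible because the library names in the cell table carry no number of the embryo pools by which the labels pair null and WT samples. Minima of more than 15 and more than 50 cells per library and type could not give a value. Leaving out WT cells with Rhox5 or Trap1a, summing the 3 types and asking for both genes in 1 cell were chosen after seeing the data, and where 1 library was left alone in a group it was assumed to vary like the others. The causes of the differences below were not tested.

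Calls by genotype, 11 at E8.5 and 6 at E9.5, became 36 and 27 without the filter on low counts, 1 and 3 with all libraries of a type in 1 fit, and 1 and 2 with the 3 types summed. At E8.5 DESeq2 made 5 calls, 17 were made without null cells lacking a tdTomato UMI, 6 without WT cells with Rhox5 or Trap1a, and 0 to 4 with a library left out. At E9.5 limma-voom made 10, and leaving out a library gave 5 to 11. Stage calls, 155 in WT and 259 in null cells, became 439 and 570 without the filter, 93 and 147 with the types summed, and 34 to 185 and 78 to 328 with a library left out, and DESeq2 made 155 in null cells. For a change of the genotype effect between stages 3 genes passed without the filter and 1 with DESeq2, against 0. Of 240 single gene values under alternatives, 162 kept their side of the threshold, 78 no longer passed and 0 changed direction, and Cwc22 kept its call in 50 of 50.

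Leaving out a library changed the sign of the log2 abundance of Hindgut at E8.5 (-0.53 to 0.26) and E9.5 (-0.53 to 0.13) and of Foregut at E9.5 (-0.61 to 0.0684), and of the Foregut share of the gut (-1.46 and -0.473 points at the low end, 9.81 at the high end). It also did so for the mapped age in Foregut (-0.0874 to 0.0162 and 0.0240 days), Midgut (-0.0183 and -0.0151 to 0.0553 days) and Hindgut (-0.00137 to 0.115 days), and a median over cells gave 0.0417 days in Foregut and -0.0625 in Midgut. For Rhox5 or Trap1a in Hindgut leaving out a library gave -27.7 to -16.4 points, and both genes in the same cell gave -10.7 points (exact permutation test, p = 0.0714). For Trap1a alone it gave -21.6 to -9.08 points, with p = 0.0238 without E8.5 WT A (-21.6) and p = 0.0143 without E9.5 WT B (-18.4) by the same exact test.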
